A study of Mus musculus with 10 samples.

Results

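The 10 genes described here carry fatty acids from the blood into the hepatocyte and hold them there: Cd36, Slc27a2 and Slc27a4 at the plasma membrane, Lpl and Vldlr in the release and uptake of lipoprotein lipid, Fabp1, Fabp2, Fabp4 and Fabp5 as fatty acid binding proteins of the cytosol, and Pparg, the transcription factor PPAR-gamma. They were taken by gene symbol from the 24052 symbols listed for each liver, and all 10 were found. The rule uses no measured value, but the genes were named with earlier results of these data known. RNA was sequenced from 10 livers, 5 of wild-type and 5 of Ndrg3 LKO mice, labelled as C57BL/6 (the line was backcrossed to C57BL/6N by the methods) and fed ad libitum, with 1 library per liver. Ndrg3 LKO mice carried 2 floxed Ndrg3 alleles and the Alb-Cre transgene, in which the albumin promoter drives Cre recombinase in hepatocytes so that exon 4 of Ndrg3 is removed there. Other liver cells were thus not meant to lose the gene. The controls were littermates called wild-type, whose own genotype was not given. In the cross described, of Ndrg3 f/+; Alb-Cre with Ndrg3 f/f mice, every pup carries at least 1 floxed allele. The mice were 8 to 10 weeks old by the methods and 10 to 12 weeks old by a figure legend, and male by a general statement of the methods. NDRG3 is a member of the N-Myc downstream regulated gene family.

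A fatty acid reaches a hepatocyte either bound to albumin or inside a lipoprotein, from which lipoprotein lipase frees it at the vessel wall. Membrane proteins such as CD36 and the fatty acid transport proteins of the Slc27a family aid its entry, and several transport proteins are also acyl-CoA synthetases that trap it inside. Fatty acid binding proteins then carry it through the cytosol, with liver FABP (Fabp1) the main form in healthy hepatocytes. Healthy adult liver makes little lipoprotein lipase, VLDL receptor, CD36 or PPAR-gamma. Adipose tissue, muscle, capillary endothelium or macrophages make much more of these, as they do of FABP4.

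Values are in CPM, the reads of a gene per 1000000 reads counted on genes, scaled between livers with the trimmed mean of M values (TMM). The depth of the libraries was 20872262 to 30450057 counted reads. Taken as the smallest signal, 3 counts were at most 0.144 CPM by library size alone, before the TMM scaling. Ndrg3 itself was at 15.9 to 21.9 CPM in the wild-type livers and at 7.07 to 9.16 CPM in the Ndrg3 LKO livers. Ndrg3 LKO liver 5 stood apart from the other 4: on the first principal component of all genes it lay at 14.1, the other 4 at 51.1 to 56.6 and the wild-type livers at -49.9 to -43. Results are therefore given with and without this liver. The TMM factors were 0.805 to 0.917 in the wild-type livers, 1.20 to 1.36 in Ndrg3 LKO livers 1 to 4 and 0.904 in liver 5. Scaling by library size alone raised the median over all genes of the log2 fold change from 0.0314 to 0.559.

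The sequences before 3 of the genes are shown: Fabp1, the member with the match described next, Fabp2, a second binding protein that fell, and Vldlr, the member with the largest difference (values below). The windows of Cd36, Slc27a2, Slc27a4 and Pparg, and a further window of Vldlr, were searched and are not shown. All were taken from RefSeq windows of the 250 bases before each start and placed on NCBIM37, the mm9 assembly that the counts are based on. The Slc27a2 window, chr2:126378510-126378759, lies inside the annotated gene and over annotated exons, so it is not sequence upstream of that gene. A 13-letter motif, the half-site AGGNCA, then any 1 base, then AGGNCA again, of the kind bound by PPAR and RXR dimers and by HNF4A, was searched on both strands. It is in 111 of the 32851 windows of all genes, or 0.338%. The 7 members with a window, which excludes Lpl, Fabp4 and Fabp5, have 10 windows in all. Of these 10 windows 1 holds a match, that of Fabp1. In Fabp1 the match, in capitals, lies on the opposite strand from -67 to -55 relative to the RefSeq start. The Fabp1 sequence runs over 198 bases at chr6:71149623-71149820 on the plus strand and stops where the first annotated exon begins. Fabp2 (chr3:122597740-122597989, plus strand) and Vldlr (chr19:27290724-27290973, plus strand) are shown over 250 bases and hold no match to these letters in these windows.
Fabp1: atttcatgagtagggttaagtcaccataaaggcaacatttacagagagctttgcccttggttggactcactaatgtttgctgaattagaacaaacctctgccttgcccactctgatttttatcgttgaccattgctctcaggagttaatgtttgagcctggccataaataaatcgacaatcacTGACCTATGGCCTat
Fabp2: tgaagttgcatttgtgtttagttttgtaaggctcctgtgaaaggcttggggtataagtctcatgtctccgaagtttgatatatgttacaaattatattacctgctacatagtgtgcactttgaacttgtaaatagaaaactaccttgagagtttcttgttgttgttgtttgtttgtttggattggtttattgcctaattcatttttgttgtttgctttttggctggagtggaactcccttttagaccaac
Vldlr: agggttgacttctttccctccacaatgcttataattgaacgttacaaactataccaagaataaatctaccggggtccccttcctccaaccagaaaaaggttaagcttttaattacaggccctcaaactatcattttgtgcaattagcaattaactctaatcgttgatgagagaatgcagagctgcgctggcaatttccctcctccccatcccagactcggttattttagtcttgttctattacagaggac

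Of the 10 genes, 8 differed between Ndrg3 LKO and wild-type livers by edgeR's quasi-likelihood test at a Benjamini-Hochberg adjusted p under 0.05. Vldlr, Fabp4, Lpl and Cd36 were higher in Ndrg3 LKO livers, and Slc27a2, Fabp2, Fabp1 and Slc27a4 were lower. Pparg and Fabp5 did not pass. The test was adjusted over all 11208 genes that reached 1 CPM in 5 or more livers, of which 48.6% were called, 25.6% as higher and 23.0% as lower. On the log2 scale the 10 genes had a median fold change of -0.21, against 0.03 for all genes tested. In bulk liver RNA, fewer cells of a type and less RNA per cell cannot be told apart, for any of these values.

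In TMM-normalized CPM the groups did not overlap for 3 of the 10 genes, Vldlr, Slc27a2 and Fabp1. This is close to the share of all genes tested, 31.5%. In CPM by library size there were also 3, with Lpl in place of Fabp1, and with quantile normalization there were 2. The share of all genes is not given for these 2 scales. Without Ndrg3 LKO liver 5, where 55.6% of 11446 genes were called, 28.4% as higher and 27.2% as lower, 3 members were called as higher and 5 as lower. Cd36 was then no longer called and Fabp5 was. By library size alone, which called 60.9% of the genes, 51.9% as higher and 9.01% as lower, 5 members were higher, with Pparg added, and 2 were lower, Slc27a2 and Fabp2. No member changed its direction between these 3 fits.

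**Figure D1:**
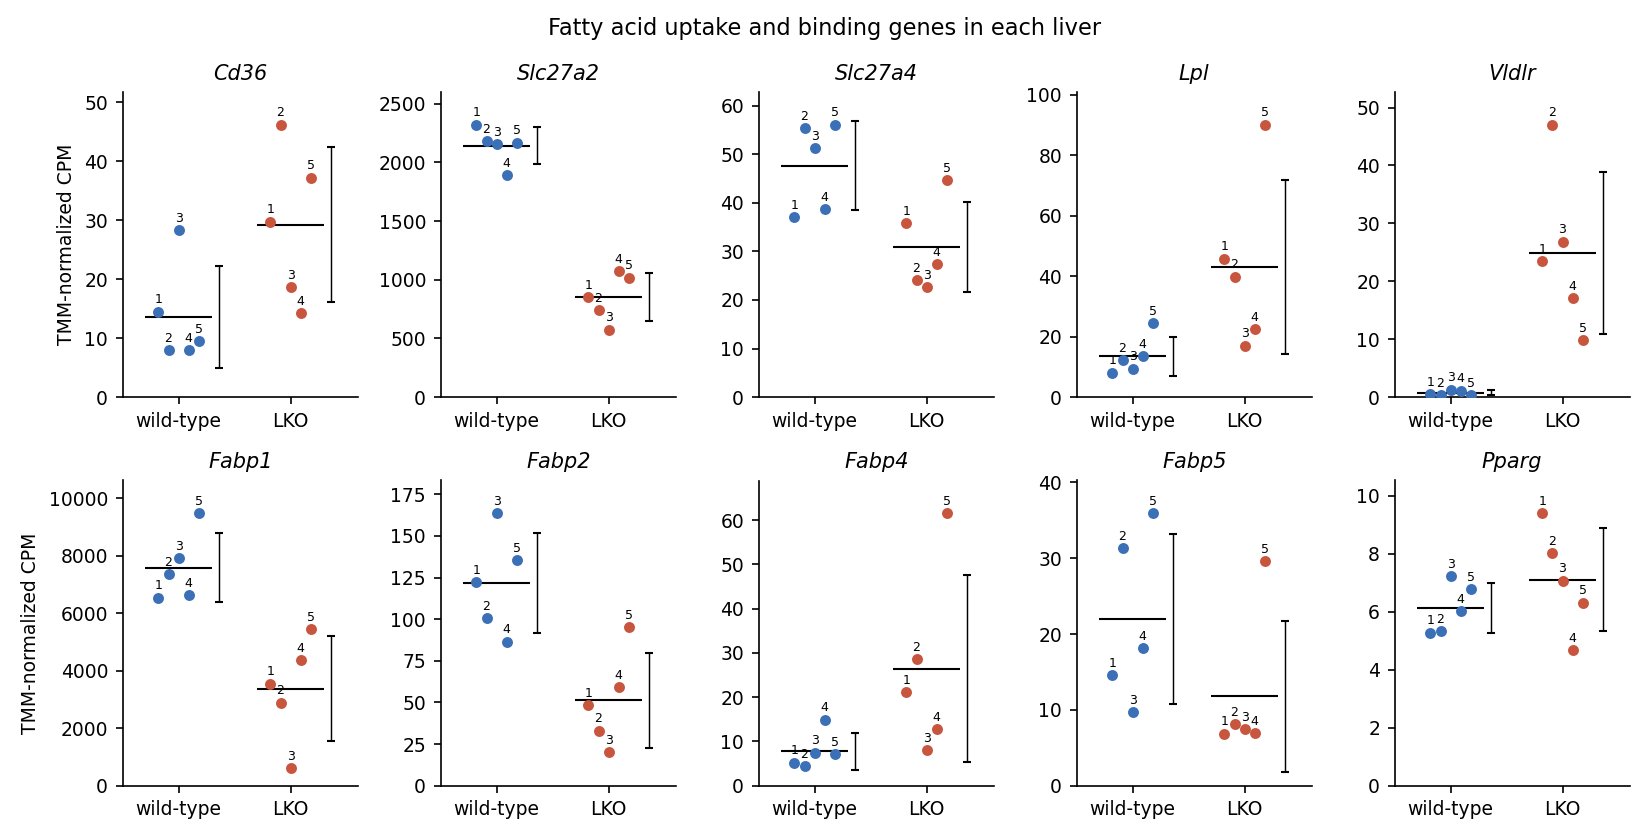
TMM-normalized CPM of each of the 10 genes in each liver (vertical axis from 0, linear, with its own range per gene). Points are livers with their replicate numbers, horizontal lines are group means and the bars beside them are SDs (n = 5 a group). All 5 Ndrg3 LKO livers lie above the wild-type livers for Vldlr and below them for Slc27a2 and Fabp1, and Ndrg3 LKO liver 5 is the highest of all 10 livers for Lpl and Fabp4.

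Slc27a2 encodes FATP2, a fatty acid transport protein and very long-chain acyl-CoA synthetase (chromosome 2 of mm9, 126378143 to 126413979, plus strand). It was at 2322, 2182, 2158, 1890.5 and 2169 CPM in wild-type livers 1 to 5 and at 852, 743, 575, 1074 and 1019 CPM in Ndrg3 LKO livers 1 to 5. Every Ndrg3 LKO liver was below every wild-type liver, liver 5 included, and the lowest wild-type liver was well above the highest Ndrg3 LKO liver. The means were 2144 ± 157 and 853 ± 203 CPM (SD, n = 5 each), a 2.52-fold lower level, with a log2 fold change of -1.33 ± 0.19 (SE, edgeR adjusted p = 0.000235). Without liver 5 the fit gave a log2 fold change of -1.41 (edgeR adjusted p = 6.53e-05). The size depended on the scaling. With all livers it was -0.82 by library size alone (edgeR adjusted p = 0.000972) and -0.73 with quantile normalization (limma adjusted p = 0.00302). An annotated lincRNA on the opposite strand, Gm16762, shares 419 exon bases with Slc27a2, and the strand setting of the counting was not stated.

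Slc27a4, which encodes FATP4, a transport protein of the same family (chromosome 2, 29658154 to 29673042, plus strand), was measured at a far lower level. Wild-type livers 1 to 5 had 37.0, 55.3, 51.2, 38.7 and 56.1 CPM, and Ndrg3 LKO livers 1 to 5 had 35.8, 24.1, 22.6, 27.4 and 44.7 CPM. Ndrg3 LKO liver 5 lay inside the wild-type range and the other 4 lay below it. The log2 fold change was -0.63 ± 0.20 (SE, edgeR adjusted p = 0.0241) with all livers and -0.81 ± 0.18 (edgeR adjusted p = 0.00254) without liver 5. By library size alone it was -0.14 (edgeR adjusted p = 0.463). The call was also lost, with edgeR adjusted p between 0.0502 and 0.057, when any of wild-type livers 2 and 5 or Ndrg3 LKO livers 2, 3 and 4 was left out.

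Cd36, the scavenger receptor also called fatty acid translocase (chromosome 5, 17287508 to 17394777, minus strand), was higher in Ndrg3 LKO livers, close to the threshold. Its wild-type levels were 14.5, 7.96, 28.3, 7.95 and 9.52 CPM and its Ndrg3 LKO levels 29.8, 46.2, 18.7, 14.2 and 37.2 CPM. Wild-type liver 3 was above Ndrg3 LKO livers 3 and 4, and all 5 Ndrg3 LKO livers were above the wild-type mean. The level was 13.6 ± 8.61 against 29.2 ± 13.1 CPM (SD, n = 5 each), and the log2 fold change was 1.10 ± 0.40 (SE, edgeR adjusted p = 0.0397). Without liver 5 it was 0.99 ± 0.42 (edgeR adjusted p = 0.0624). Leaving out any single liver except wild-type 3 and Ndrg3 LKO 3 and 4 ended the call, with edgeR adjusted p from 0.0624 to 0.0942.

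Vldlr, the receptor of very low density lipoproteins (chromosome 19, 27290974 to 27328721, plus strand), had the largest difference of the 10 genes. Wild-type livers 1 to 5 held 10, 8, 23, 25 and 6 reads on it, or 0.561, 0.391, 1.28, 1.15 and 0.357 CPM. In Ndrg3 LKO livers 1 to 5 it had 818, 1941, 1043, 598 and 209 reads, or 23.5, 47.0, 26.8, 17.0 and 9.85 CPM. The lowest Ndrg3 LKO liver, liver 5, was several times above the highest wild-type liver. The means were 0.748 ± 0.436 and 24.9 ± 14.0 CPM (SD, n = 5 each), a 32.8-fold higher level by the fit, with a log2 fold change of 5.04 ± 0.49 (SE, edgeR adjusted p = 2.03e-05).

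By library size, Vldlr reached 1 CPM in 2 wild-type and 5 Ndrg3 LKO livers, so it passed the filter on low values through the group in which it was high. With no filter the fit gave 5.01 (edgeR adjusted p = 6.88e-06). Limma on log2(CPM + 1), log2(CPM + 0.1) and log2(CPM + 5) gave 3.75, 4.85 and 2.26, the size depending on the pseudocount as it does for a gene this low in one group. Without liver 5 the edgeR value was 5.22 ± 0.40.

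Lpl, lipoprotein lipase (chromosome 8, 71404390 to 71431347, plus strand), was also higher. It was at 8.14, 12.2, 9.41, 13.5 and 24.4 CPM in wild-type livers 1 to 5 and at 45.8, 39.8, 17.0, 22.4 and 90.1 CPM in Ndrg3 LKO livers 1 to 5. Wild-type liver 5 overlapped with Ndrg3 LKO livers 3 and 4, and without that wild-type liver every Ndrg3 LKO liver lay above the rest. The level rose 3.18-fold, with a log2 fold change of 1.67 ± 0.44 (SE, edgeR adjusted p = 0.00801), and 2.29-fold without Ndrg3 LKO liver 5 (log2 fold change 1.20 ± 0.35, edgeR adjusted p = 0.0115). Wild-type liver 5, with the highest wild-type Lpl, was also the liver with muscle markers (below).

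Fabp1, liver fatty acid binding protein (chromosome 6, 71149821 to 71155017, plus strand), fell. Wild-type livers 1 to 5 had 6544, 7358, 7928, 6631 and 9486 CPM. Ndrg3 LKO livers 1 to 5 had 3549, 2889, 617, 4375 and 5458 CPM. All 5 were below all wild-type livers, with liver 3 far below the other 4 and liver 5 the nearest to the wild-type range. By library size alone the groups overlapped, with Ndrg3 LKO liver 4 at 5530 CPM and wild-type liver 1 at 5294 CPM.

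The log2 fold change of Fabp1 was -1.17 ± 0.42 (SE, edgeR adjusted p = 0.0382), a 2.25-fold lower level, and -1.42 ± 0.42 (edgeR adjusted p = 0.0128) without liver 5. Without Ndrg3 LKO liver 3, the lowest, it was -0.90 (edgeR adjusted p = 0.0107). Leaving out any of wild-type livers 1, 2, 3 and 5 or Ndrg3 LKO livers 1 and 2 ended the call, with edgeR adjusted p between 0.0512 and 0.0735. Scaling by library size alone gave -0.70 (edgeR adjusted p = 0.113) and quantile normalization -0.77 (limma adjusted p = 0.19), neither of them called.

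Fabp2, the intestinal fatty acid binding protein, is on chromosome 3 (122597990 to 122602424, plus strand). Its wild-type values were 122, 101, 164, 86.5 and 135 CPM and its Ndrg3 LKO values 48.5, 33.1, 20.1, 59.1 and 95.3 CPM. Liver 5 lay inside the wild-type range, and the other 4 Ndrg3 LKO livers were all below it, liver 3 again the lowest. The level was 2.38-fold lower (log2 fold change -1.25 ± 0.35, edgeR adjusted p = 0.0109), and 3.05-fold lower without liver 5 (-1.61 ± 0.29, edgeR adjusted p = 0.000681). Unlike Fabp1, it was called with every single liver left out. A lincRNA on the opposite strand, 4933405D12Rik, overlaps Fabp2 and shares no exon base with it.

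Fabp4, the adipocyte and macrophage form (chromosome 3, 10204347 to 10208576, minus strand), was higher. Wild-type livers 1 to 5 had 5.22, 4.40, 7.46, 14.9 and 7.08 CPM, and Ndrg3 LKO livers 1 to 5 had 21.1, 28.6, 8.08, 12.8 and 61.6 CPM. Wild-type liver 4 overlapped with Ndrg3 LKO livers 3 and 4, and Ndrg3 LKO liver 5 was far above the next. The log2 fold change was 1.75 ± 0.51 (SE, edgeR adjusted p = 0.014), or 3.36-fold, and 1.16 ± 0.39 (edgeR adjusted p = 0.0259), or 2.23-fold, without liver 5.

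Fabp5, the epidermal form (chromosome 3, 10012548 to 10016607, plus strand), was the member that turned most on 1 liver. Its wild-type livers ran widely, at 14.6, 31.3, 9.69, 18.1 and 35.9 CPM, while Ndrg3 LKO livers 1 to 4 were close together at 6.84, 8.09, 7.41 and 6.92 CPM and liver 5 was at 29.6 CPM. Ndrg3 LKO livers 1 to 4 were below every wild-type liver and liver 5 was above 3 of them. With all livers the log2 fold change was -0.91 ± 0.48 (SE, edgeR adjusted p = 0.132). Without liver 5 it was -1.59 ± 0.33 (edgeR adjusted p = 0.00167), a 3.02-fold lower level.

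Pparg, whose product is a nuclear receptor that drives fat storage genes (chromosome 6, 115311239 to 115440419, plus strand), did not pass. It was at 5.28, 5.32, 7.24, 6.02 and 6.78 CPM in wild-type livers 1 to 5 and at 9.40, 8.02, 7.08, 4.67 and 6.32 CPM in Ndrg3 LKO livers 1 to 5. The lowest of all 10 livers was Ndrg3 LKO liver 4 and the highest Ndrg3 LKO liver 1. The log2 fold change was 0.21 ± 0.20 (SE, edgeR adjusted p = 0.383), and 0.24 ± 0.20 (edgeR adjusted p = 0.337) without liver 5. By library size alone, with all livers, it was 0.75 (edgeR adjusted p = 0.0138). This is 0.19 above the median of all genes on that scale and compares with 0.18 above the median with TMM.

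**Figure D2:**
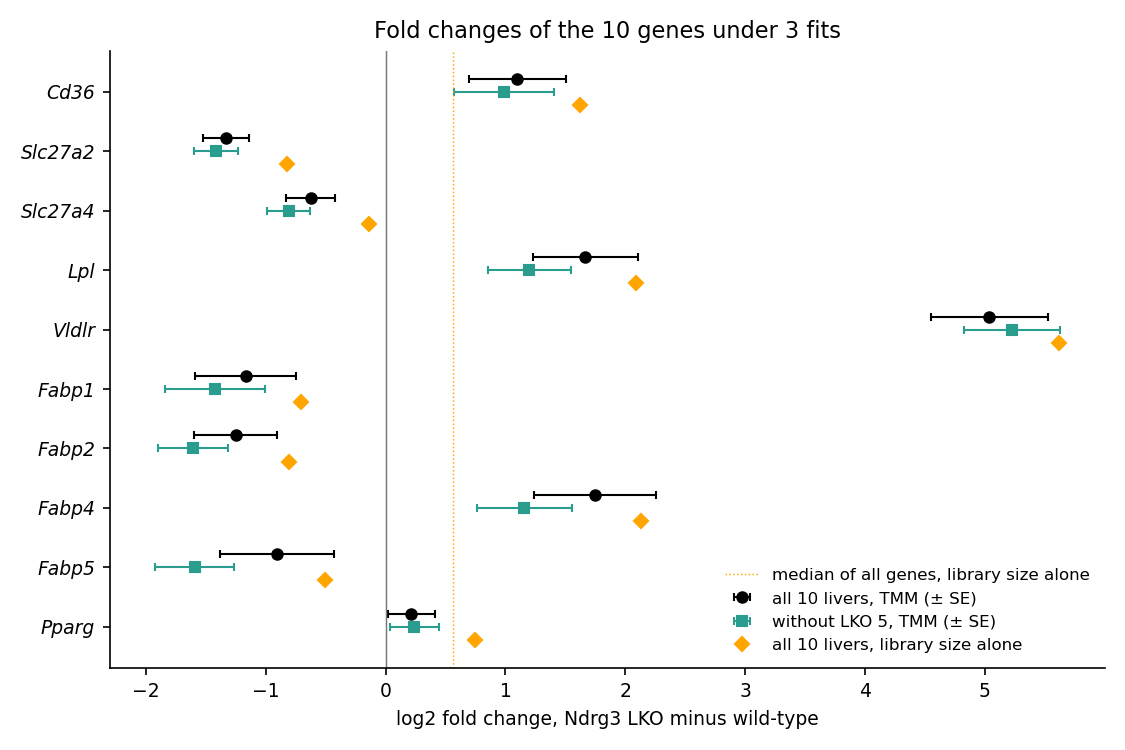
Log2 fold change of each gene, Ndrg3 LKO minus wild-type (horizontal axis), from edgeR with all 10 livers (black circles), without Ndrg3 LKO liver 5 (green squares) and scaled by library size alone (orange diamonds). Bars are SEs of the TMM fits, and the dotted line is the median of all genes by library size alone, at 0.559. Every diamond lies to the right of its circle, and Vldlr lies above 5 in all 3 fits.

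TMM and library size alone differ by 1 factor per liver, so values relative to the median of all genes could differ little between them. Slc27a4 was 0.66 below that median with TMM and 0.70 below it by library size alone, and Fabp1 was 1.20 and 1.26 below it. Cd36 was 1.07 and 1.06 above it, and Vldlr 5.01 and 5.06 above it on the log2 scale. Quantile normalization is not bound in this way. By limma on log2(CPM + 1), Slc27a2 was at -0.73 with it and -1.36 with TMM, and Fabp1 at -0.77 and -1.46. Fabp2, at -1.27 and -1.38, and Cd36, at 1.14 and 1.09, moved less.

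To compare levels between the genes, CPM were divided by the length in kilobases of the longest annotated protein-coding transcript. On this per-length scale Fabp1 led in wild-type livers with 13724 ± 2173 CPM per kilobase (SD, n = 5), followed by Slc27a2 with 735 ± 53.7 and Fabp2 with 126 ± 31.2. Fabp5 (22.2 ± 11.4), Fabp4 (12.3 ± 6.55) and Slc27a4 (11.8 ± 2.26) came next, and each overlapped with its neighbour in that order. Cd36, Pparg and Lpl, at 3.82, 3.30 and 3.29 CPM per kilobase, also overlapped with one another. Vldlr was the lowest by far with 0.0938 ± 0.0547.

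In Ndrg3 LKO livers the first 3 places of the per-length order were the same, at 6108 ± 3287, 292 ± 69.7 and 53.1 ± 29.8 CPM per kilobase. From Fabp2 down to Slc27a4 each gene now overlapped with the next: Fabp4 stood at 41.5 ± 33.2, Fabp5 at 11.9 ± 10.1, Lpl at 10.5 ± 7.02, Cd36 at 8.19 ± 3.68 and Slc27a4 at 7.62 ± 2.28. Pparg (3.82 ± 0.957) and Vldlr (3.12 ± 1.76) overlapped at the bottom, where Vldlr had been apart in wild-type livers.

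Within the 4 binding proteins, on the per-length scale, Fabp1 made up 98.7% to 98.9% of the sum in wild-type livers and 96.5% to 98.9% in Ndrg3 LKO livers. The ratio of Fabp4 to Fabp5 was 0.554, 0.218, 1.19, 1.28 and 0.305 in wild-type livers 1 to 5 and 4.79, 5.47, 1.69, 2.86 and 3.22 in Ndrg3 LKO livers 1 to 5. Fabp4 exceeded Fabp5 in all 5 Ndrg3 LKO livers, liver 5 included, and in wild-type livers 3 and 4. The ratio of Fabp1 to Fabp2, which both fell, was 84.5 to 134 in wild-type and 53.6 to 153 in Ndrg3 LKO livers, so the ranges lay over each other. These ratios were picked with the values in view and were not tested.

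The other genes of the pathway were read from 6 lists. In the list of the other Fabp and Slc27a genes, 3 of 10 passed the filter, 1 higher and 1 lower. Slc27a5, FATP5, a bile acid and very long-chain acyl-CoA synthetase of hepatocytes, was at 1139 to 1638 CPM in wild-type livers, at 134 to 242 CPM in Ndrg3 LKO livers 1 to 4 and at 830 CPM in liver 5 (log2 fold change -2.17 ± 0.46, edgeR adjusted p = 0.00243). Without liver 5 its log2 fold change was -2.94 (edgeR adjusted p = 8.08e-07). The per-length ratio of Slc27a2 to Slc27a5 was 1.04 to 1.36 in wild-type livers, 2.13 to 5.36 in Ndrg3 LKO livers 1 to 4 and 0.962 in liver 5. Fabp7, the brain form, was low throughout, at 0.334 to 1.42 and 1.08 to 4.43 CPM (log2 fold change 1.49, edgeR adjusted p = 0.0157). It passed the filter on low values mostly through the Ndrg3 LKO livers, the group in which it was higher.

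Lpl acts with a set of partners, and of the 11 genes in that list, all of them tested, 4 were higher and 4 lower, with a median of -0.38 on the log2 scale. By library size alone 4 were higher and 1 was lower, and Apoa5, an activator of the lipase, turned from -0.39 to 0.14. Gpihbp1, which anchors lipoprotein lipase on capillary endothelium, was at 5.56 to 10.2 CPM in wild-type and 13.7 to 23.3 CPM in Ndrg3 LKO livers (log2 fold change 1.35 ± 0.20, edgeR adjusted p = 0.000327). Angptl8, listed as Gm6484 and encoding an inhibitor of the lipase in muscle and fat, was at 11.1 to 19.8 and 61.0 to 145 CPM (2.44 ± 0.25, edgeR adjusted p = 2.93e-05). Apoc2, the cofactor of the enzyme, was at 218 to 326 and 459 to 1149 CPM (1.21 ± 0.25, edgeR adjusted p = 0.00246). For each of these 3 genes all Ndrg3 LKO livers were above all wild-type livers.

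Lmf1, an endoplasmic reticulum factor needed for the lipase to mature, was lower (log2 fold change -0.62 ± 0.14, edgeR adjusted p = 0.00314), although by library size alone it was -0.10 (edgeR adjusted p = 0.607). Hepatic lipase, Lipc, and endothelial lipase, Lipg, had log2 fold changes of -0.93 and -0.79, both called, and Lipg was not called by library size alone (-0.30, edgeR adjusted p = 0.111). Angptl4, an inhibitor of the lipase and a PPAR target, was at -0.42 ± 0.32 (SE, edgeR adjusted p = 0.294), and its direction turned to 0.18 by library size alone. Lpl and Lipc, lipases of the same gene family, thus differed in opposite directions in these livers.

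Beside Vldlr, of the 5 tested genes among 6 other lipoprotein receptors and their regulators none was higher and 3 were lower, or 4 lower without Ndrg3 LKO liver 5. By library size alone 1 was higher and 1 lower. Scarb1, the receptor of high density lipoproteins, and Lrp1, a receptor of remnant particles, were lower, with log2 fold changes of -1.36 and -0.79. By library size alone Lrp1 was at -0.27 and no longer called (edgeR adjusted p = 0.214).

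Among 5 tested genes of acyl-CoA synthesis and binding, 1 was higher and 1 lower, or 2 lower without Ndrg3 LKO liver 5. By library size alone 2 were higher and 1 lower. Acsl1, the main long-chain acyl-CoA synthetase of liver, fell from 1401 to 2171 CPM in wild-type livers to 441 to 863 CPM in Ndrg3 LKO livers (log2 fold change -1.54 ± 0.22, edgeR adjusted p = 0.000208). Acsl4, the form that prefers arachidonic acid, rose by 1.03 ± 0.15 on the log2 scale (edgeR adjusted p = 0.000277). Dbi, the acyl-CoA binding protein, was at -0.02 ± 0.39 (edgeR adjusted p = 0.968).

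In the list of PPAR-gamma target genes known in fatty liver, chosen as companions of Pparg, 6 of 8 were tested, with none higher and 3 lower. By library size alone none was higher and 1, G0s2, was lower. G0s2, an inhibitor of adipose triglyceride lipase, was the lowest at -2.85 ± 0.37 on the log2 scale (edgeR adjusted p = 0.000129), and Plin4, a lipid droplet protein, was at -1.08 ± 0.27 (edgeR adjusted p = 0.00673), though not called by library size alone (edgeR adjusted p = 0.0819). Cidec, a droplet fusion protein, was at 0.24 ± 0.38 (edgeR adjusted p = 0.618). Cidea, a related protein, did not pass the filter and was highest in Ndrg3 LKO liver 2 with 4.39 CPM.

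Of 10 nuclear receptors and coactivators, all tested, 1 was higher and 3 were lower. Scaled by library size, 4 were higher, with Rxra, Rxrb and Nr1h2 added, and 2 were lower, and Nr1h2 turned from -0.10 to 0.39. Ppara, PPAR-alpha, known to drive Fabp1, Slc27a2 and Acsl1 in liver, was at 297 to 368 CPM in wild-type and 88.5 to 158 CPM in Ndrg3 LKO livers (log2 fold change -1.50 ± 0.17, edgeR adjusted p = 4.82e-05). Hnf4a, a receptor of hepatocyte identity, was lower, at -1.58 ± 0.21 (edgeR adjusted p = 0.000134). Ppargc1a, a coactivator of both PPAR forms, was higher, at 2.76 ± 0.33 (edgeR adjusted p = 7.04e-05). Rxra, the partner of the PPARs on DNA, was at 0.11 ± 0.17 (edgeR adjusted p = 0.596), and at 0.65 by library size alone (edgeR adjusted p = 0.0213).

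**Figure D3:**
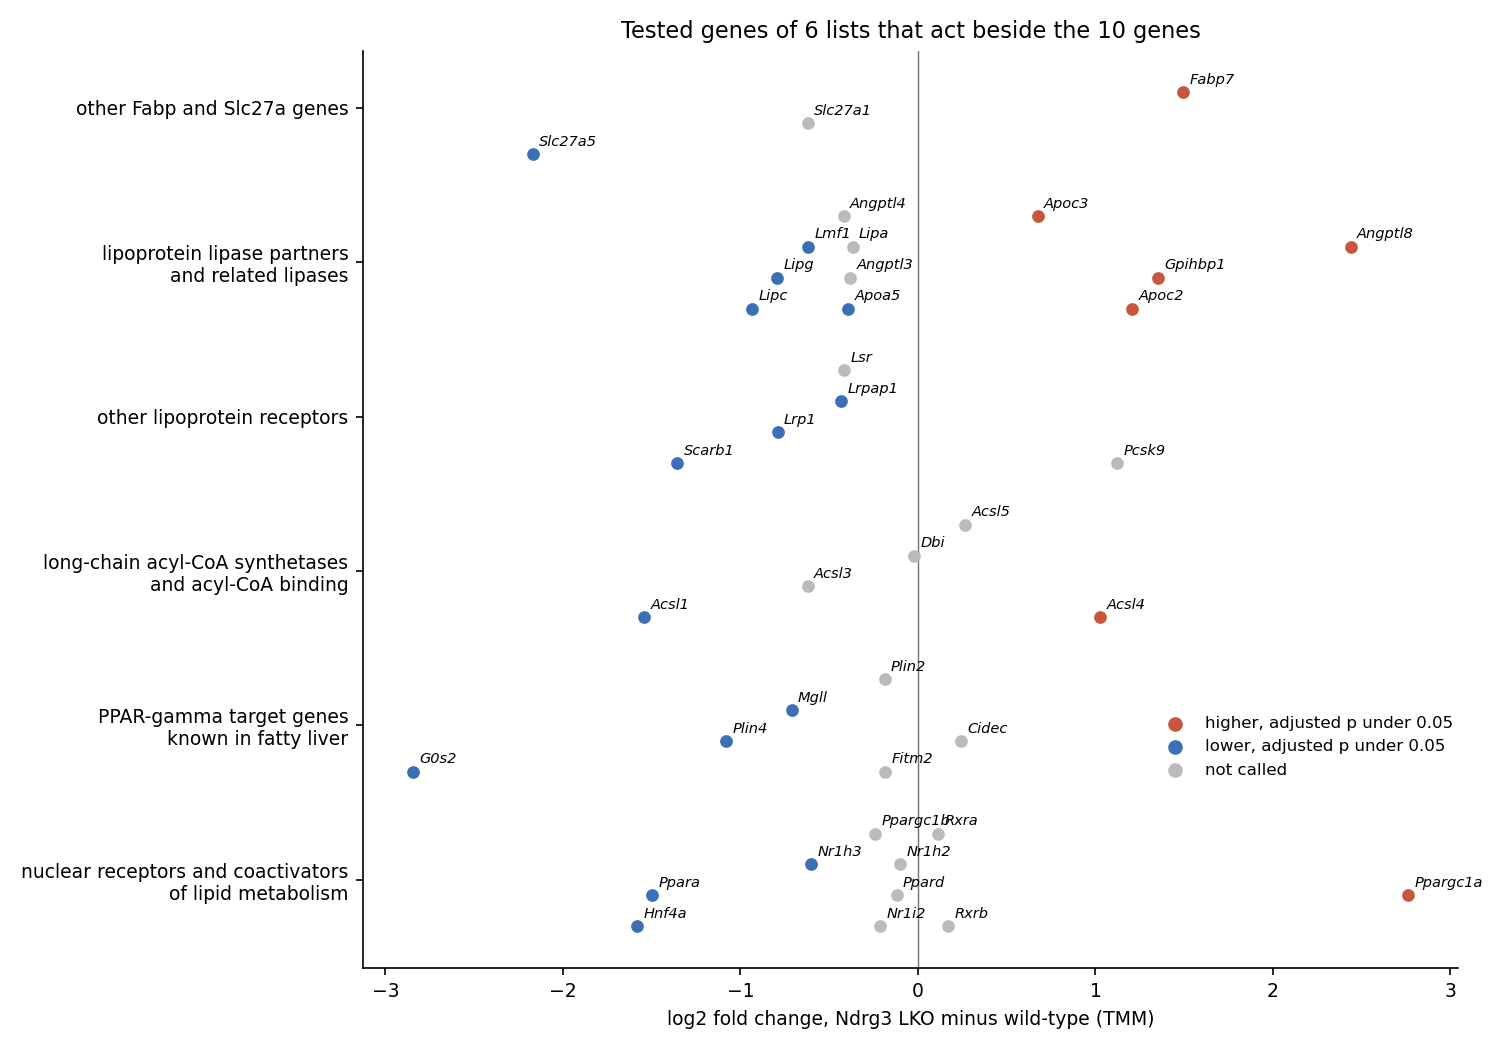
Log2 fold change with TMM, Ndrg3 LKO minus wild-type (horizontal axis), of the tested genes of 6 lists (rows), with red for higher, blue for lower and grey for not called at an edgeR adjusted p of 0.05. Small vertical offsets within a list only separate the labels. G0s2 is the lowest at -2.85 and Ppargc1a the highest at 2.76.

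Markers of other cells were read beside the members that those cells make. Of 7 adipocyte markers, Car3 and Lipe were expressed in every liver and were lower in Ndrg3 LKO livers, with log2 fold changes of -2.08 and -0.90, and Car3 was at -2.86 without liver 5. The summed level of the other 5, Adipoq, Plin1, Cfd, Lep and Retn, was 10.8 CPM in wild-type liver 4, 14.2 in Ndrg3 LKO liver 1 and 30.2 in Ndrg3 LKO liver 2, at most 1.22 in the other wild-type livers, 0.643 in Ndrg3 LKO liver 3, 0.057 in liver 4 and 0 in liver 5. The 3 livers with these counts had the highest Fabp4 of the wild-type group and the next 2 highest of the Ndrg3 LKO group. Ndrg3 LKO liver 5, in which all 5 markers had 0 reads, had the highest Fabp4 and the highest Lpl of all.

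Without these 3 livers, 3 of the 10 genes were called by edgeR: Slc27a2 at -1.31 (adjusted p = 0.00669), Vldlr at 4.79 (adjusted p = 0.000574) and Fabp4 at 2.17 (adjusted p = 0.0254). Over all genes 31.9% were then called, 3591 of 11268. The members that lost their call had log2 fold changes near those with all livers for Fabp1 (-1.18, edgeR adjusted p = 0.154), Fabp2 (-1.18, edgeR adjusted p = 0.0632) and Slc27a4 (-0.67, edgeR adjusted p = 0.0682). Lpl had a log2 fold change of 1.66 (edgeR adjusted p = 0.0551), and Cd36 was at 0.63 (edgeR adjusted p = 0.317). The part of fat tissue in Fabp4, Lpl and Cd36 was not tested.

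Skeletal or heart muscle markers summed to 129 CPM in wild-type liver 5 and to at most 0.154 CPM in every other liver, with Myh6 at 0 in every liver. That liver also had 9.82 CPM of Fabp3, the heart form of the binding proteins, against at most 0.230 CPM elsewhere. Leaving this liver out with the 3 others gave Lpl a log2 fold change of 2.11 (edgeR adjusted p = 0.0397) and Cd36 0.46 (edgeR adjusted p = 0.517), while Slc27a2 was at -1.32 and Vldlr at 4.60, both called, and Fabp4 at 2.25 (edgeR adjusted p = 0.0542). In these 6 livers 3 of the 10 genes and 21.2% of all genes tested were called.

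Markers of endothelium and macrophages, cells that make Lpl, Cd36, Fabp4 and Vldlr, were higher in Ndrg3 LKO livers. Of 10 endothelial markers 9 were called as higher, and their summed level was 88.6 to 112 CPM in wild-type and 176 to 226 CPM in Ndrg3 LKO livers. All 8 markers of resident macrophages were called as higher, with sums of 85.2 to 216 and 191 to 590 CPM. Of 7 markers of lipid-associated macrophages 4 passed the filter, all of them higher, with sums of 47.2 to 76.6 and 121 to 311 CPM. Stellate cell markers were higher in 5 of 7, with sums of 108 to 172 and 200 to 281 CPM. The part of these cells in the 4 higher members was not tested.

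Of 7 hepatocyte markers 6 were lower and Cps1 was not called, and their sum was 129616 to 172543 CPM in wild-type livers, 33974 to 40879.9 in Ndrg3 LKO livers 1 to 4 and 147674 in liver 5. Alb carried most of the sum, with 107849.7 of 147674 CPM in liver 5. In that liver Alb, Ttr, Serpina1c, Tat and Cps1 lay inside their wild-type ranges, whereas Apoa1 (13994 CPM, wild-type 16761 to 24948) and Apob (2353 CPM, wild-type 3225 to 3984) lay below them, as did Slc27a2 and Fabp1. Of 5 cholangiocyte markers, summing to 4.87 to 16.0 and 5.80 to 16.0 CPM, 4 were tested, none was higher and 1, Sox9, was lower. Intestinal epithelium markers, read because Fabp2 is the intestinal form, summed to 0.780 to 3.31 CPM in wild-type and 0.896 to 4.05 CPM in Ndrg3 LKO livers, and Cdx1, Cdx2 and Sis were at 0 in every liver.

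**Figure D4:**
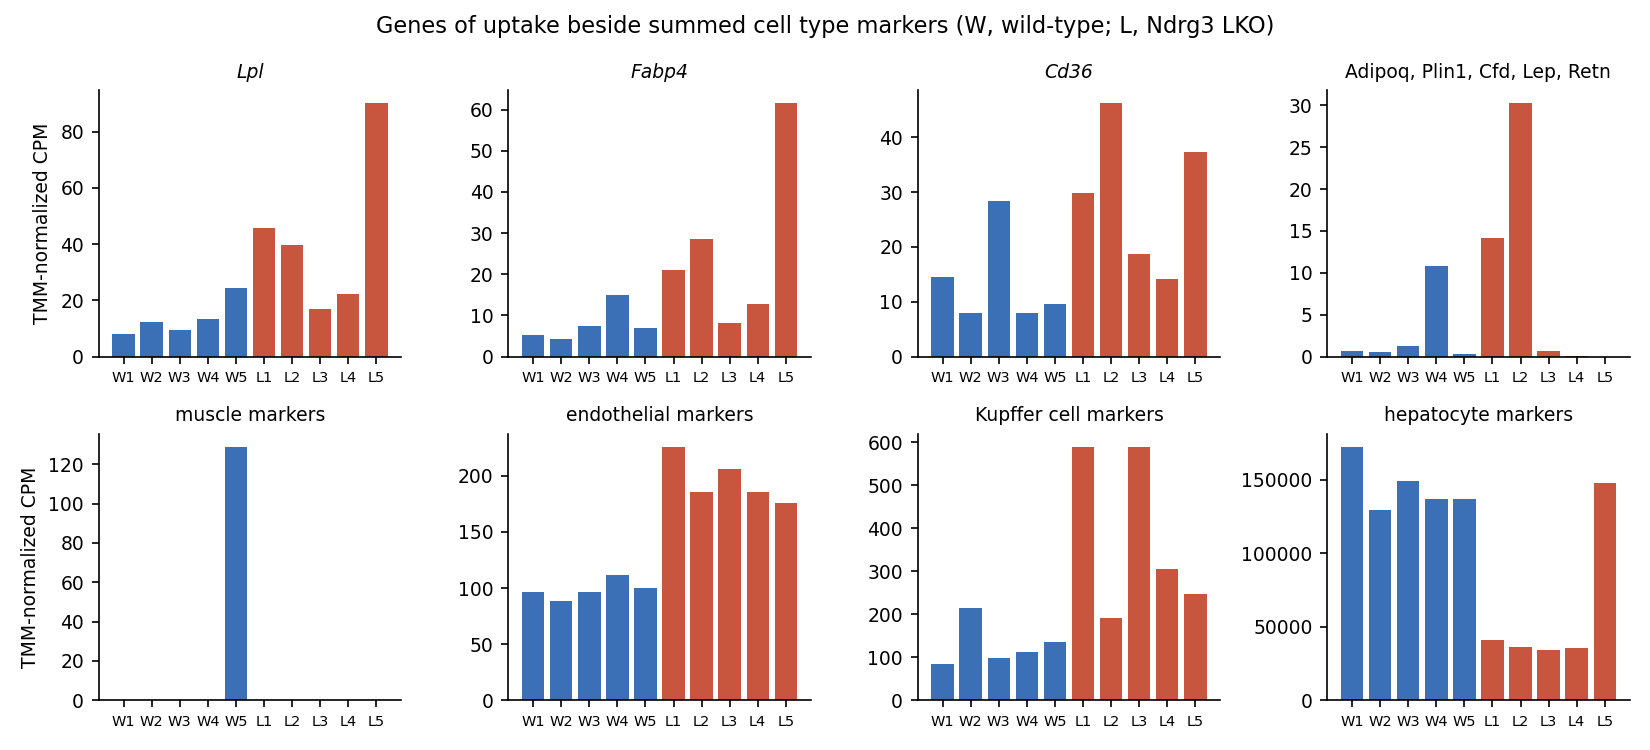
TMM-normalized CPM of Lpl, Fabp4 and Cd36 and the summed CPM of 5 marker lists in each liver (W1 to W5, wild-type, blue; L1 to L5, Ndrg3 LKO, red; each vertical axis from 0 with its own range). The adipocyte panel holds Adipoq, Plin1, Cfd, Lep and Retn. L5 has the highest Lpl and Fabp4 and no adipocyte marker reads, and W5 has the muscle markers.

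**Figure D5:**
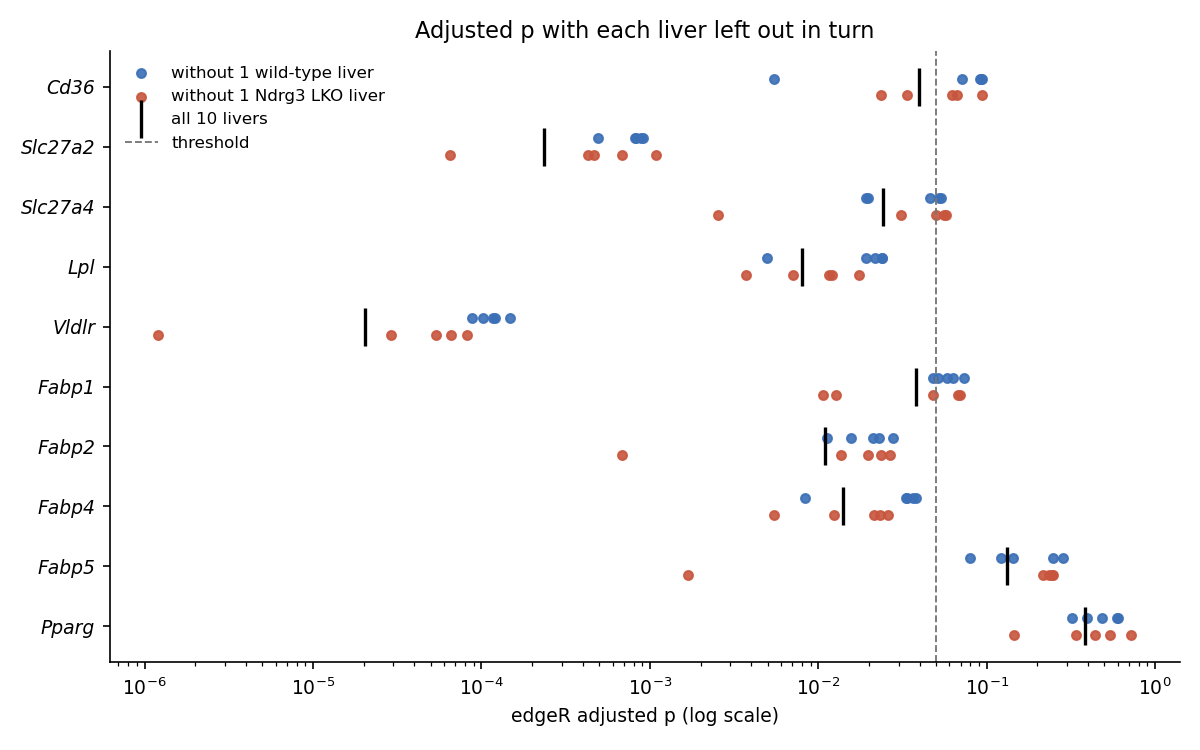
EdgeR adjusted p of each gene (horizontal axis, log scale) with all 10 livers (black bars) and with each wild-type (blue) or Ndrg3 LKO liver (red) left out; the dashed line is the threshold of 0.05. Slc27a2, Vldlr, Lpl, Fabp2 and Fabp4 stay to its left throughout, Cd36, Slc27a4 and Fabp1 lie on both sides, and Fabp5 crosses it only without Ndrg3 LKO liver 5.

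When single livers were left out, Vldlr, Slc27a2, Lpl, Fabp2 and Fabp4 were called in all 10 fits. Cd36 was called in 3 of them, Fabp1 in 4 and Slc27a4 in 5. Fabp5 was called in 1 and Pparg in none.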

How the data were processed

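Stranded mRNA libraries of the 10 livers were sequenced as 100 bp paired-end reads. Per the study's methods the authors aligned to mm9 using STAR and took gene counts from its count module, and the deposited values are these raw counts per gene symbol, as whole numbers although the files are named CPM. The annotation and strand setting are not given in the sources used here. The submitters' processing notes name STAR 2.7.3a, Trim Galore 0.6.4 and Cufflinks 2.2.1.

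Counts were tested with edgeR 4.0.16 (R 4.3.3; TMM, quasi-likelihood F test, a minimum of 1 CPM in 5 or more livers, Benjamini-Hochberg adjustment over all genes tested, threshold 0.05). SEs were derived as the absolute log2 fold change over the root of F. With a liver left out, the filter asked for as many livers as the smaller group held. DESeq2 1.42.0, limma 3.58.1, other scalings and filters, a replicate block and each liver left out were alternatives, and the fits without the livers with adipocyte or muscle markers were added with the data in view. The test was tried first on simulated counts. The floor of 3 counts covers counting error only. Coordinates come from GENCODE on NCBIM37. Pathway genes named are, for each list, the called genes with the largest change, at most 2 a direction, and the genes acting directly on a member; Cidea, Cidec, Dbi, Apoa5 and the ratios were chosen after their values had been seen. 1 list gene is not reported here. The 10 genes and the lists were chosen with earlier results of these data known. No library pair was identical (chi-square per degree of freedom 25.7 to 450 within groups).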

Additional observations from a re-analysis of the deposited data

Results flagged for a closer look

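Fabp5 in Ndrg3 LKO liver 5, at 29.6 CPM, lay far from the other 4 livers of its group, the nearest of which was at 8.09 CPM: the gap was 0.945 of the group's range, above the critical value of 0.71 for 5 samples. The 10 genes gave 20 groups to look at, and 1 group stood out in this way; chance alone flags about 1 group of 20.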

How the results depend on the processing

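The number of members called, 8, was 7 or 8 under DESeq2, limma with each pseudocount, both other scalings, quantile normalization, both filters and an absolute log2 fold change above 1, and 5 to 8 with single livers left out. DESeq2, limma and the other scalings called 5437 to 6831 of 11208 genes, and the 2 other filters 6208 of 17746 and 4254 of 8729. The fewest members, 5, came without wild-type liver 2, wild-type liver 5 or Ndrg3 LKO liver 2. Those 3 fits called 5023 of 11512, 5164 of 11504 and 5418 of 11294 genes, and 5 of 10 members is close to these shares. The number of members called was 3 without the 3 livers with adipocyte markers. It was also 3 without the 4 livers with adipocyte or muscle markers. Fewer livers were compared there, and all genes called fell from 5443 to 3591 and 2376. An absolute log2 fold change above 1 left 2301 of 11208 genes. The count of members with no overlap between the groups was 3 to 6 with single livers left out, 5 without wild-type liver 4 and 6 without Ndrg3 LKO liver 5, and 5 and 6 without the 3 and the 4 livers. The share of all genes with no overlap rose as well, from 31.5% to 34.6%, 44.7%, 40.7% and 43.9% in these last 4 sets. Pparg, not called, turned to a log2 fold change of -0.0314 without the 3 livers.

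Both groups are numbered 1 to 5, but the deviations of same-numbered livers correlated at -0.357, -0.272, -0.313, -0.176 and 0.0363, so the numbers were not taken as pairs. With the replicate block 4412 of 11208 genes and 8 members were called: Cd36 was lost (edgeR adjusted p = 0.0509) and Fabp5 gained (edgeR adjusted p = 0.0157). Depth limits Vldlr in wild-type livers, where it rests on 6 to 25 reads.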
